A study of Homo sapiens with 9 samples.

Results

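Cells of SW1783, a long-established human glioma line, were transfected with a duplex of miR-376a*A, the unedited form of this microRNA, or with a control microRNA, and their RNA was compared across genes. The groups were taken from the sample labels. The comparison used 6 of the 9 arrays in the series, with 3 biological replicates labelled miR-376a*A and 3 labelled miR-control. Both groups had received 50 nM of duplex with Lipofectamine RNAiMAX, a lipid transfection reagent, and were harvested after 24 h. The other 3 arrays, from cells given the edited form miR-376a*G in the same way, entered the same model to estimate the spread and are set beside the results where they differ. All cells were of 1 line, and the microRNA was supplied from outside, which limits how the groups stand for cells that make miR-376a* themselves.

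MicroRNAs are short RNAs that guide Argonaute proteins to messenger RNAs, mostly through pairing of the seed at the 5′ end of the microRNA to the 3′ end of the message, and the paired messages are usually destabilised. The name miR-376a* is an older one for the arm that is now called 5p. The precursor is a known substrate of ADAR enzymes, which convert adenosine to inosine, and inosine pairs like guanosine, so that the edited form is written with G. The mature sequences of the miR-376a genes are shown because the seed fixes which messages a duplex can pair with. They are those of RefSeq on GRCh38.p14, from chromosome 14, plus strand, written 5′ to 3′ with the seed (bases 2 to 8) in capitals. The labels do not say which 5p arm was transfected.
hsa-miR-376a-5p, gene MIR376A1, chr14:101040788-101040809: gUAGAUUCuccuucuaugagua
hsa-miR-376a-2-5p, gene MIR376A2, chr14:101040080-101040100: gGUAGAUUuuccuucuauggu
hsa-miR-376a-3p, the arm opposite both, from MIR376A1 at chr14:101040825-101040845: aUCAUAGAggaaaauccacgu
The seeds of the 3 sequences differ from one another.

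Signals are the deposited linear intensities of the probe sets. The arrays had median signals between 18.8 and 24.0. Control replicate 1 stood apart from the other 8 arrays: its highest rank correlation with any array was 0.941, and its brightest signal was 7191, against 3601 to 4374 elsewhere. Differences of 2-fold or more from the average of the other 2 controls were found in 772 genes, against 25 genes between those 2 arrays, and it was the lowest control in 63.5% of the genes called higher with miR-376a*A, against 40.3% of all genes tested. The counts per list, the counts over all genes and the values of some genes are therefore also given without it. A fit with array weights is described at the end. Its part in the results was not tested further. Of 15 glioma markers, 9 were measured, VIM and CD44 among them, and GFAP, S100B, NES, FABP7, OLIG2 and AQP4 did not pass the filter on dim signals. Summed glioma marker signals were 9635 to 10896 with miR-376a*A and 8966 to 14622 in controls, with 0 members called by limma and 1 at an unadjusted p under 0.05. Of 8 immune markers only CSF1R was measured, with signals from 21.2 to 36.5. All 7 fibroblast and mesenchyme markers were measured, with sums of 7964 to 8814 with miR-376a*A and 7670 to 12222 in controls. Of 5 epithelial markers KRT8 and KRT18 were measured, with sums of 1093 to 1332 and 1095 to 1849. Neither set had a member called by limma or at an unadjusted p under 0.05.

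Of 12505 genes tested, 417 (3.33%) passed an adjusted p of 0.05 between miR-376a*A and control in limma, 244 higher (1.95%) and 173 lower (1.38%). Such genes are called here rises and falls. For none of these 417 genes did the 3 miR-376a*A and 3 control arrays overlap, so an absence of overlap adds nothing to a call. A difference is on the log2 scale of quantile-normalized signals plus 16, as miR-376a*A minus control, with its standard error (SE). Among the called genes the median rise was 0.71 and the median fall -0.74, while the median over all genes was 0.01. At least 2-fold differences were seen for 57 rises and 39 falls. Without control replicate 1 the counts were 1669 (13.3%), 866 higher (6.93%) and 803 lower (6.42%), and all 417 calls were among them. When each of the 9 arrays was left out in turn, 153 calls passed in every fit, 76 rises and 77 falls, and these are called stable below. Without 1 miR-376a*A array 176 to 183 genes were called. For every other call that is named, the arrays without which it did not pass are given, with the largest adjusted p among those fits. Data were simulated once with the unequal spreads of these arrays and with 200 of 12505 genes changed. Of the calls on them, 17.6% were false against a threshold of 5%. The adjusted p-values may therefore be too small. The false share depends on how many genes are changed, so 17.6% is not an estimate for the calls made here. In bulk RNA, fewer cells of a type and less RNA per cell cannot be told apart.

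The 65 functional lists held 2618 measured genes, of which 83 were called higher and 59 lower, and the 9887 genes in no list held 161 and 114. For each list the counts are rises and falls, first with all arrays and then without control replicate 1, and a percentage in brackets is the share of its measured genes that were called. These shares compare with 3.33% of all genes with all arrays and 13.3% without that array.

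**Figure D1:**
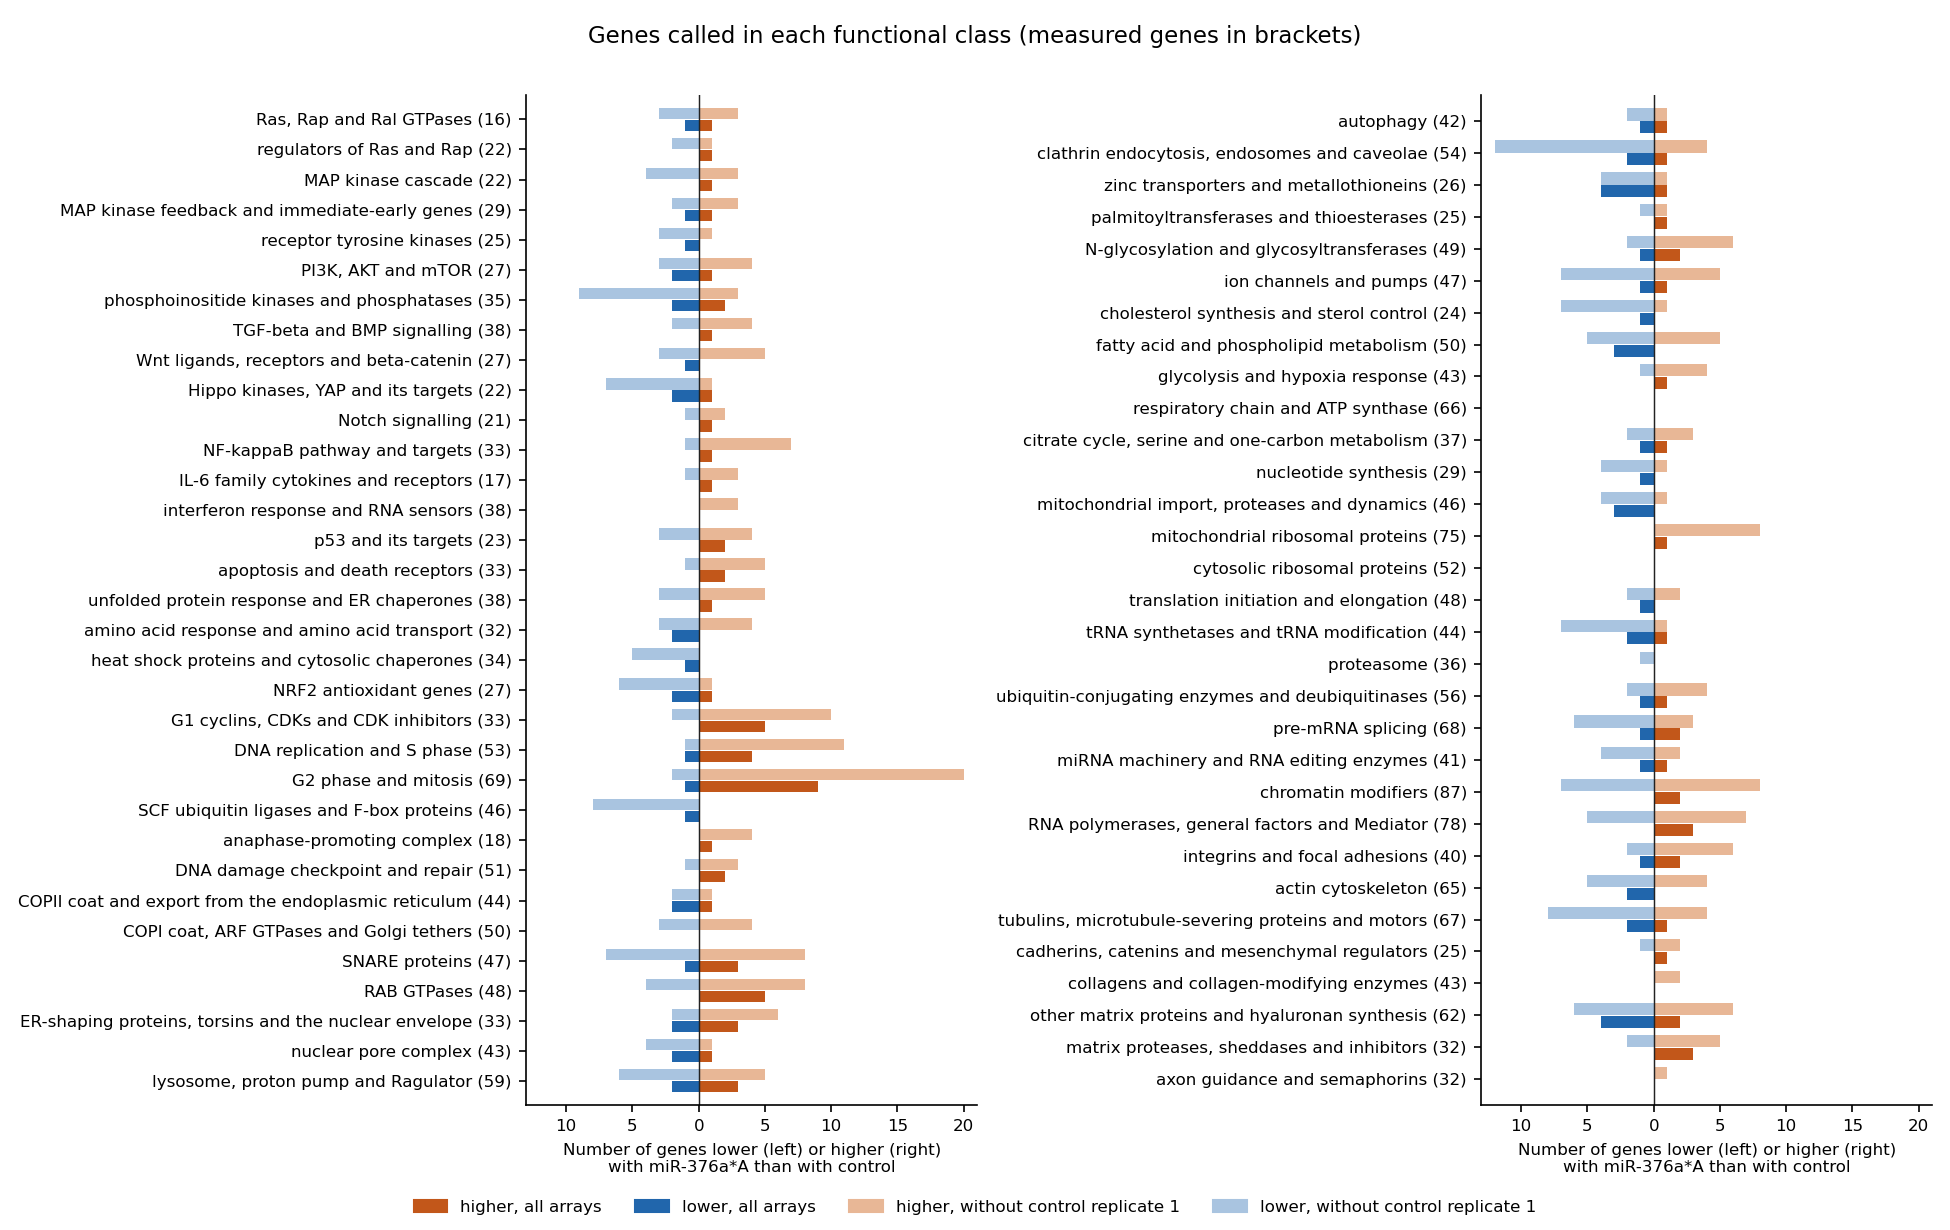
Number of genes called lower (left, blue) or higher (right, orange) with miR-376a*A than with control in each of 64 of the 65 functional lists, with the number of measured genes in brackets. Dark bars use all arrays and pale bars leave out control replicate 1; the longest dark bar is G2 phase and mitosis, with 9 rises and 1 fall among 69 genes.

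**Figure D2:**
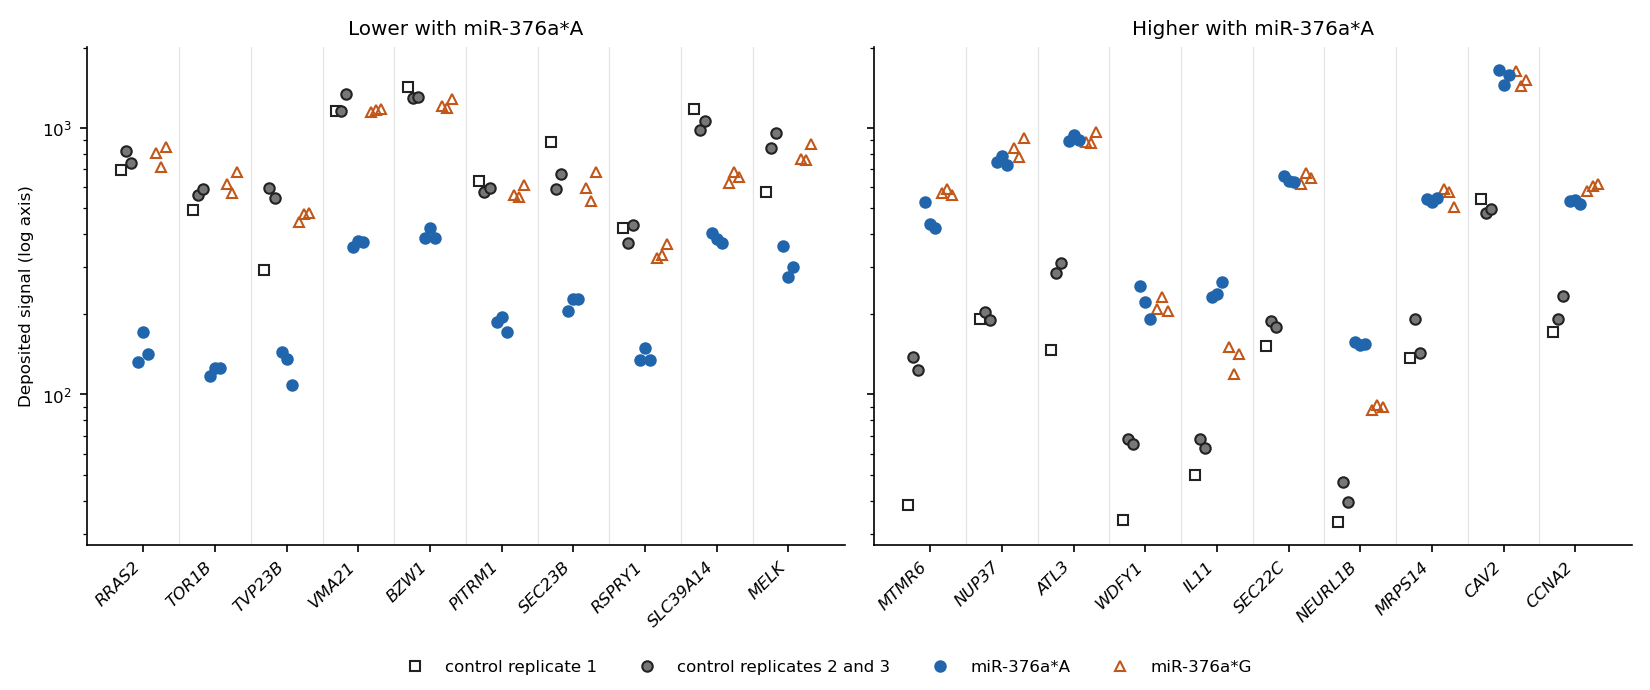
Deposited signal (log axis) on each of the 9 arrays for 10 stable falls and 10 stable rises, with control replicate 1 as an open square, the other controls as grey circles, miR-376a*A as blue circles and miR-376a*G as open triangles. The miR-376a*A arrays lie outside the range of the 3 controls for each gene, and no called gene had overlapping groups. Control replicate 1 is the lowest control for MTMR6, ATL3 and WDFY1, among others.

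The deepest fall among signalling genes was in a Ras-family GTPase, and Ras and Rap genes moved in both directions. RRAS2, a small GTPase close to R-Ras that acts upstream of PI3K and RAF kinases, gave signals of 133, 172 and 142 on the miR-376a*A arrays and 698, 821 and 736 on the control arrays. Its groups did not overlap, as was so for 20.5% of all genes (11.5% with miR-376a*A above and 8.95% with it below), and it fell by 2.23 (SE 0.12, adjusted p = 7.45e-06). Its other probe sets differed by -2.25 and -1.15. SIPA1L2, a protein that stimulates GTP hydrolysis by Rap, rose by 0.58 (SE 0.09, adjusted p = 0.00536), but when the probe sets of a gene were averaged it did not pass (adjusted p = 0.0687). Both are stable calls. The Ras, Rap and Ral list had 1 rise and 1 fall among 16 measured genes (12.5%), and 3 and 3 (37.5%) without control replicate 1. SIPA1L2 was the 1 call among 22 regulators of Ras and Rap (4.55%), with 1 and 2 (13.6%) without control replicate 1. The other call in the Ras, Rap and Ral list was the rise of RAP2B (0.69, adjusted p = 0.0192, up to 0.108 without any 1 miR-376a*A array).

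RAP2A, a Rap GTPase that organises the actin cytoskeleton and cell spreading, had signals of 421, 367 and 419 on the miR-376a*A arrays and 461, 652 and 715 on the control arrays. The miR-376a*A signals lay below all controls, but the difference of -0.58 (SE 0.14) did not pass (adjusted p = 0.0572). Without control replicate 1 it was -0.75 (adjusted p = 0.000274). Against miR-376a*G, in a direct test on the same miR-376a*A arrays, RAP2A differed by -0.80 (adjusted p = 0.0149). Its other probe sets differed from control by -0.02 and -0.39, and neither passed. RAP1B, a related GTPase that activates integrins, differed by 0.39 (adjusted p = 0.0907).

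Enzymes of phosphoinositides, the membrane lipids that mark organelles and carry PI3K signals, included one of the steepest rises and a stable fall. MTMR6, a phosphatase that removes the 3-phosphate, gave signals of 526, 437 and 423 on the miR-376a*A arrays and 38.5, 138 and 123 on the control arrays. It rose by 2.24 (SE 0.34, adjusted p = 0.00547), with control replicate 1 well below the other controls, and it rose by 1.74 without that array (adjusted p = 2.69e-06). PIP4K2A, a kinase that turns phosphatidylinositol 5-phosphate into the 4,5-bisphosphate, had 301, 296 and 294 on the miR-376a*A arrays and 623, 605 and 636 on the control arrays and fell by 1.04 (SE 0.08, adjusted p = 0.000121). One further probe set of PIP4K2A gave a like value and the other did not pass, at -0.24 and -1.02. Of 35 enzymes in this list, 2 rose and 2 fell with all arrays (11.4%), with 3 and 9 (34.3%) without control replicate 1. The calls besides MTMR6 and PIP4K2A were PIP4K2B (-0.52, adjusted p = 0.0206, up to 0.125 without any 1 miR-376a*A array or miR-376a*G replicate 1 or 2) and SYNJ1 (0.99, adjusted p = 0.0436, up to 0.167 without any 1 miR-376a*A array or any 1 miR-376a*G array). In the PI3K, AKT and mTOR list of 27 genes, 1 rose and 2 fell (11.1%), none of them stable, with 4 and 3 (25.9%) without control replicate 1. FOXO3, a transcription factor that AKT keeps out of the nucleus, was the rise (0.88, adjusted p = 0.0123, up to 0.0706 without any 1 miR-376a*A array). The falls were PIK3CD (-0.56, adjusted p = 0.0218, up to 0.133 without control replicate 2, any 1 miR-376a*A array or miR-376a*G replicate 2), a catalytic PI3K subunit, and RPS6KB1 (-1.02, adjusted p = 0.0353, up to 0.157 without any 1 array other than control replicate 1), the kinase S6K1 downstream of mTOR.

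IL11 and WWTR1 were stable rises and CCN1 a stable fall among cytokine and Hippo genes. IL11, a cytokine of the IL-6 family, had signals of 232, 239 and 264 on the miR-376a*A arrays and 50.0, 68.3 and 62.9 on the control arrays. It rose by 1.82 (SE 0.14, adjusted p = 9.44e-05), its other probe set rose too, at 1.42, and it was also higher than with miR-376a*G, by 0.78 (adjusted p = 0.0151). WWTR1 encodes TAZ, a partner of the transcription factor TEAD that is held in check by Hippo kinases. It had 629.6, 575 and 548 on the miR-376a*A arrays and 211, 332 and 354 on the control arrays, and it rose by 0.94 (SE 0.15, adjusted p = 0.00674), but it did not pass when only the 6 arrays compared were fitted (adjusted p = 0.0526). CCN1, a matrix protein whose gene is a known target of YAP and TAZ, had 1291, 1183 and 1282 on the miR-376a*A arrays and 2133, 1530.0 and 1532 on the control arrays. It fell by 0.41 (SE 0.06, adjusted p = 0.00414) and did not pass with median-centred or unnormalized arrays (adjusted p up to 0.172). The Hippo and YAP list as a whole had 1 rise and 2 falls among 22 genes (13.6%), the other fall being AXL, and 1 and 7 (36.4%) without control replicate 1. IL11 was the 1 call among 17 genes of the IL-6 family (5.88%), with 3 and 1 (23.5%) without control replicate 1.

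In the MAP kinase cascade 1 of 22 genes was called, and among feedback and immediate-early genes 1 rise and 1 fall of 29. These were MAP3K2 (1.00, adjusted p = 0.00911, up to 0.0614 without miR-376a*A replicate 2), a kinase that activates MEK5 and JNK pathways, DUSP6 (0.82, adjusted p = 0.0468, up to 0.2 without any 1 miR-376a*A array or any 1 miR-376a*G array), a phosphatase of ERK, and DUSP5 (-0.48, adjusted p = 0.0245, up to 0.137 without control replicate 3, any 1 miR-376a*A array or any 1 miR-376a*G array). TGF-beta and BMP signalling held 1 rise among 38 genes, the receptor TGFBR2 (0.69, adjusted p = 0.0125, up to 0.0832 without miR-376a*A replicate 1 or 3). The receptor kinase list held 1 fall among 25, in AXL (-0.38, adjusted p = 0.0319, up to 0.153 without control replicate 3, any 1 miR-376a*A array or miR-376a*G replicate 2). Calls in Wnt and Notch lists were the fall of DKK1 (-0.26, adjusted p = 0.0455, up to 0.182 without any 1 array other than control replicate 1) and the rise of HEY1 (0.62, adjusted p = 0.0278, up to 0.139 without any 1 miR-376a*A array or any 1 miR-376a*G array). None of these calls is stable. With all arrays the shares were 4.55% in the MAP kinase cascade, 6.9% in its feedback genes, 2.63% in TGF-beta, 4% in receptor kinases, 3.7% in Wnt and 4.76% in Notch. Without control replicate 1 the counts were 3 and 4 (31.8%), 3 and 2 (17.2%), 4 and 2 (15.8%), 1 and 3 (16%), 5 and 3 (29.6%) and 2 and 1 (14.3%) in the same order, so that the MAP kinase cascade and Wnt lists then exceeded the 13.3% of all genes most.

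Genes of membrane traffic were called in both directions. SEC23B, an inner coat subunit of the COPII vesicles that leave the endoplasmic reticulum (ER), gave signals of 206, 228 and 229 on the miR-376a*A arrays and 888, 589 and 674 on the control arrays. It fell by 1.60 (SE 0.15, adjusted p = 0.000291), and its other probe sets fell as well, at -1.85 and -1.28. TVP23B, a Golgi membrane protein, had 145, 135 and 109 on the miR-376a*A arrays and 292, 593 and 546 on the control arrays and fell by 1.74 (SE 0.21, adjusted p = 0.00133). The groups did not overlap for either gene, which was so for every call. The COPII list had 1 rise and 2 falls among 44 measured genes (6.82%), and 1 and 2 (6.82%) without control replicate 1, where the share was below that of all genes. The rise was TMED5 (1.02, adjusted p = 0.0112, up to 0.0647 without miR-376a*A replicate 1 or 2), a p24 cargo receptor. The list of COPI coat, ARF GTPases and Golgi tethers had 0 calls by limma among 50 genes, with 7 at an unadjusted p under 0.05, and 4 and 3 (14%) without control replicate 1.

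Proteins that shape the ER and the nuclear envelope were called in 5 of 33 genes (15.2%, against 3.33% of all genes), 3 higher and 2 lower, with 6 and 2 (24.2%) without control replicate 1. TOR1B, a torsin ATPase in the lumen of the ER and nuclear envelope, had 117, 125 and 125 on the miR-376a*A arrays and 490.4, 562 and 591 on the control arrays. It fell by 2.04 (SE 0.11, adjusted p = 7.45e-06) and was the second deepest fall in these lists after RRAS2. RTN4, a reticulon that bends ER membrane into tubules, had 1337, 1289.9 and 1346 on the miR-376a*A arrays and 2864, 2280.0 and 2207 on the control arrays and fell by 0.81 (SE 0.08, adjusted p = 0.000477). Its other probe sets differed by -0.06, -1.03 and -1.12, the first of which did not pass. ATL3, an atlastin GTPase that fuses ER tubules, rose instead. Its signals were 893, 939 and 898 on the miR-376a*A arrays and 147, 286 and 311 on the control arrays, with control replicate 1 lowest, and it rose by 1.84 (SE 0.19, adjusted p = 0.000669), or by 1.57 without that array. Its other probe set, at 0.14, did not pass. The remaining rises were the torsin TOR3A (0.62, adjusted p = 0.00769, up to 0.0595 without miR-376a*A replicate 2 or 3) and the lamin LMNB2 (0.67, adjusted p = 0.0112, up to 0.0752 without miR-376a*A replicate 2 or 3).

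SNAREs, which drive membrane fusion, had 3 rises and 1 fall among 47 genes (8.51%), and 8 and 7 (31.9%) without control replicate 1, when neither direction prevailed. SEC22C, an ER-localised protein related to the SNARE SEC22B, had 659, 633 and 629 on the miR-376a*A arrays and 151, 189 and 179.8 on the control arrays and rose by 1.78 (SE 0.10, adjusted p = 7.45e-06). Its other 5 probe sets differed by 0.16, 0.17, 0.87, 0.03 and 0.24, and none passed, so that the rise rests on the brightest one. SNAP25, a plasma membrane SNARE, had 416, 432 and 399.7 on the miR-376a*A arrays and 138, 204 and 215 on the control arrays and rose by 1.12 (SE 0.14, adjusted p = 0.00211). SNAP25 is also a neuronal marker. Of the 8 neuronal markers 6 were measured, SYP and GAD1 were not, and SNAP25 and STMN2 were called higher, while the summed signals of the 6 were 2330 to 2423 with miR-376a*A and 1992 to 3308 in controls, and their part in the result was not tested. STX3, a syntaxin of the plasma membrane, had 123, 104 and 87.1 on the miR-376a*A arrays and 191, 194 and 252 on the control arrays and fell by 0.92 (SE 0.14, adjusted p = 0.00607). The third rise of the list was VPS33B (0.46, adjusted p = 0.0475, up to 0.22 without any 1 array other than control replicate 1). The call on STMN2, a regulator of microtubules, was not stable (0.62, adjusted p = 0.0412, up to 0.187 without control replicate 2 or 3, any 1 miR-376a*A array or miR-376a*G replicate 1 or 2). RAB GTPases, which direct vesicles to their targets, had 5 rises and 0 falls among 48 genes (10.4%), and 8 and 4 (25%) without control replicate 1. None is stable. They were RAB7A (0.48, adjusted p = 0.0199, up to 0.113 without any 1 miR-376a*A array), the late endosome RAB, RAB40B (1.27, adjusted p = 0.0195, up to 0.0927 without any 1 miR-376a*A array) and RAB36 (0.68, adjusted p = 0.0131, up to 0.0755 without miR-376a*A replicate 1 or 2). The last 2 were RAB18 (0.28, adjusted p = 0.0479, up to 0.207 without any 1 array other than control replicate 1) and RAB27A (0.45, adjusted p = 0.0487, up to 0.211 without any 1 array other than control replicate 1).

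Lysosome and endosome genes likewise divided. VMA21, an ER chaperone needed to assemble the V-ATPase proton pump, had signals of 357, 377 and 373 on the miR-376a*A arrays and 1162, 1153 and 1345 on the control arrays. It fell by 1.71 (SE 0.11, adjusted p = 2.3e-05), although its other probe set, at 0.09, did not pass. LAMTOR3, a subunit of the Ragulator complex that recruits mTORC1 to lysosomes, had 245, 287 and 277 on the miR-376a*A arrays and 70.6, 94.9 and 95.7 on the control arrays and rose by 1.50 (SE 0.13, adjusted p = 0.000223). LIPA, the lysosomal acid lipase, rose by 0.78 (SE 0.09, adjusted p = 0.0012). TMEM106B, a lysosomal membrane protein, had 395, 402 and 365 on the miR-376a*A arrays and 111, 197 and 192 on the control arrays and rose by 1.18 (SE 0.16, adjusted p = 0.00259). In the direct test against miR-376a*G, TMEM106B was the lower one with miR-376a*A, at a difference of -0.84 (adjusted p = 0.0195). The list had 3 rises and 2 falls among 59 genes (8.47%), and 5 and 6 (18.6%) without control replicate 1. Its other fall was RRAGC (-0.55, adjusted p = 0.0278, up to 0.131 without any 1 miR-376a*A array or miR-376a*G replicate 1 or 2), a Rag GTPase.

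WDFY1, an endosomal protein that binds phosphatidylinositol 3-phosphate, had 256, 221 and 192 on the miR-376a*A arrays and 33.9, 68.1 and 65.1 on the control arrays. It rose by 1.83 (SE 0.21, adjusted p = 0.0012), and by 1.55 without control replicate 1. SQSTM1, the autophagy receptor p62, fell by 0.43 (SE 0.06, adjusted p = 0.00209), with signals of 1105, 1138 and 1203 on the miR-376a*A arrays and 1867, 1475 and 1422 on the control arrays. Among its other probe sets, at -0.76, -0.22, 0.06 and -0.39, the first also passed, and the call was lost with averaged probe sets, median-centred arrays or no normalization (adjusted p up to 0.137). CAV2, a caveolin of the flask-shaped pits called caveolae, had 1654, 1444 and 1575 on the miR-376a*A arrays and 539.5, 478 and 494 on the control arrays and rose by 1.58 (SE 0.08, adjusted p = 7.45e-06). PACSIN2, a membrane-bending protein of caveolae and endocytic necks, moved the other way, with 334, 426 and 418 on the miR-376a*A arrays and 735, 759.9 and 836 on the control arrays, and fell by 0.98 (SE 0.11, adjusted p = 0.00101). The endocytosis list had 1 rise and 2 falls among 54 genes (5.56%) and 4 and 12 (29.6%) without control replicate 1. The third call was DNM3 (-0.90, adjusted p = 0.00817, up to 0.0533 without miR-376a*A replicate 1), a dynamin. WDFY1 and SQSTM1 were the calls among 42 autophagy genes (4.76%), with 1 and 2 (7.14%) without control replicate 1.

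**Figure D3:**
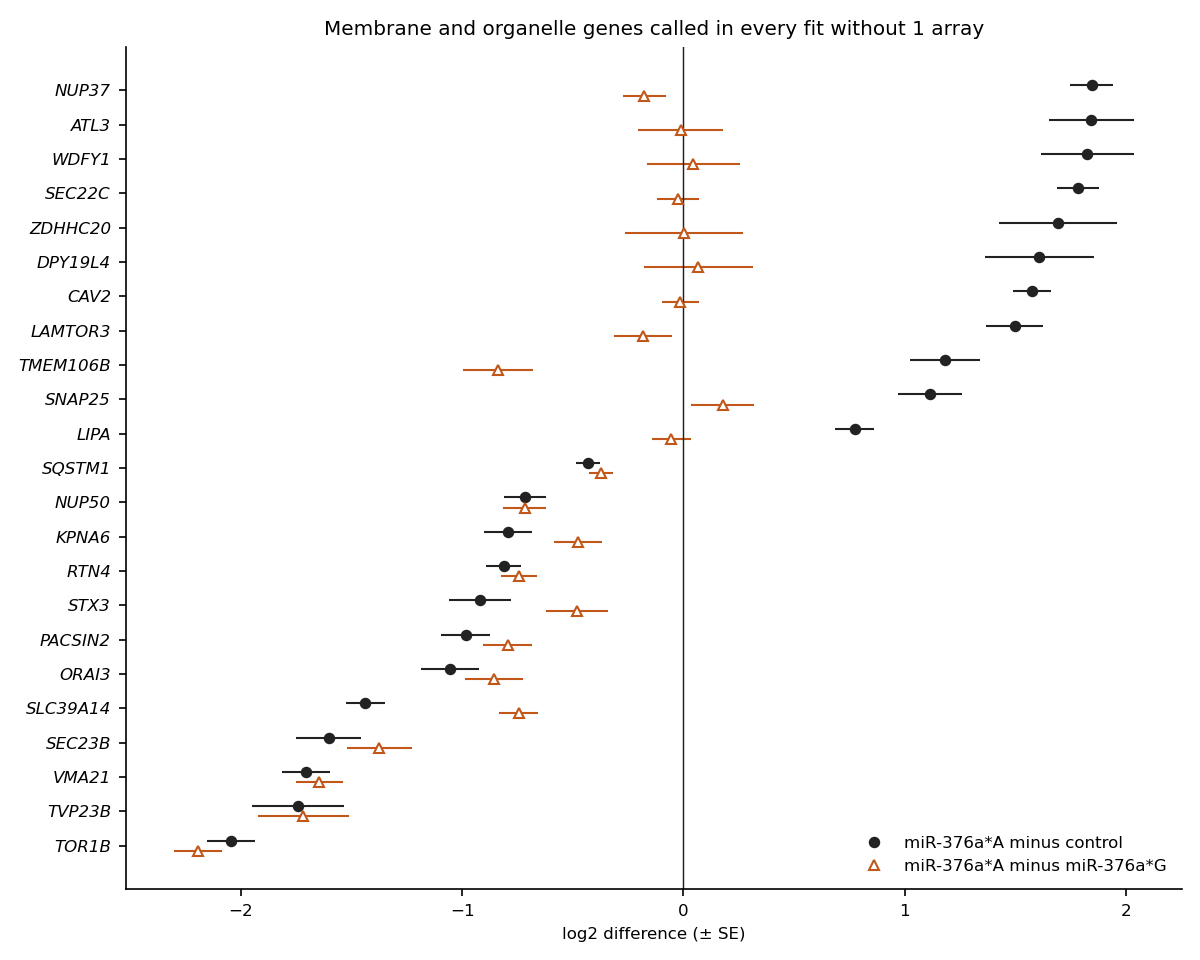
log2 difference (± SE) of miR-376a*A minus control (black circles) and minus miR-376a*G (open triangles) for the 23 stable calls among membrane and organelle genes. The falls lie below 0 in both contrasts, and the rises other than TMEM106B lie near 0 against miR-376a*G; both contrasts use the same miR-376a*A arrays.

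The list of zinc transporters and metallothioneins had the highest share of calls of any list with all arrays, 5 of 26 measured genes (19.2%). It had the same 1 rise and 4 falls (19.2%) without control replicate 1, against 13.3% of all genes. Its share was then no longer the highest, with 36.4% in the G1 list for example. The falls were all in the SLC39A family, which brings zinc into the cytosol, and the rise was in an SLC30A transporter, which moves zinc out of it. SLC39A14, which also carries iron and manganese, had 402, 383 and 370.1 on the miR-376a*A arrays and 1179, 982 and 1059 on the control arrays and fell by 1.44 (SE 0.09, adjusted p = 1.86e-05), a stable call. SLC39A10 had 59.2, 47.3 and 45.1 on the miR-376a*A arrays and 91.7, 169.8 and 202 on the control arrays and fell by 1.28 (SE 0.21, adjusted p = 0.00804), with an adjusted p of 0.0505 without miR-376a*A replicate 3. The others were SLC39A1 (-0.66, adjusted p = 0.00769, up to 0.0513 without miR-376a*A replicate 3), SLC39A9 (-0.51, adjusted p = 0.0263, up to 0.121 without control replicate 3, any 1 miR-376a*A array or miR-376a*G replicate 2) and SLC30A7 (0.60, adjusted p = 0.0198, up to 0.108 without any 1 miR-376a*A array). The median difference over the list rounded to 0.01, as did that over all genes.

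At the nuclear pore 1 gene rose and 2 fell among 43 (6.98%), with 1 and 4 (11.6%) without control replicate 1. NUP37, a subunit of the outer ring complex, had 743, 782 and 729 on the miR-376a*A arrays and 192, 204 and 191 on the control arrays and rose by 1.85 (SE 0.10, adjusted p = 7.45e-06), while its other probe set, at 0.27, did not pass. NUP50, a mobile nucleoporin that aids release of imported cargo, had 213, 219.8 and 220.0 on the miR-376a*A arrays and 329, 396 and 366 on the control arrays and fell by 0.72 (SE 0.10, adjusted p = 0.00304), but it did not pass with averaged probe sets (adjusted p = 0.0566). KPNA6, an importin that carries proteins with a nuclear localisation signal, had 255, 216 and 206 on the miR-376a*A arrays and 354, 424 and 408 on the control arrays and fell by 0.79 (SE 0.11, adjusted p = 0.00304). All 3 calls are stable.

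ZDHHC20, a palmitoyltransferase, had 502, 477 and 431 on the miR-376a*A arrays and 71.2, 197 and 175 on the control arrays. It rose by 1.69 (SE 0.27, adjusted p = 0.00682), or by 1.31 without control replicate 1, the lowest control. It did not pass when only the 6 arrays were fitted (adjusted p = 0.0524). DPY19L4, of a family of C-mannosyltransferases, had 375, 316 and 331 on the miR-376a*A arrays and 57.1, 135 and 138 on the control arrays and rose by 1.61 (SE 0.25, adjusted p = 0.00607), and it did not pass with averaged probe sets (adjusted p = 0.278). ZDHHC20 was the 1 call among 25 palmitoyltransferases and thioesterases (4%), with 1 and 1 (8%) without control replicate 1. The list of N-glycosylation and glycosyltransferases had 2 rises and 1 fall among 49 genes (6.12%), with 6 and 2 (16.3%) without control replicate 1. The calls besides DPY19L4 were FUT8 (0.61, adjusted p = 0.0116, up to 0.0756 without any 1 miR-376a*A array), the core fucosyltransferase, and ALG2 (-0.81, adjusted p = 0.00756, up to 0.0509 without miR-376a*A replicate 3), a mannosyltransferase of the lipid-linked precursor. Among ion channels and pumps 1 rose and 1 fell of 47 (4.26%), with 5 and 7 (25.5%) without control replicate 1. ORAI3, a subunit of calcium channels opened by store depletion, had 103, 102 and 101 on the miR-376a*A arrays and 257, 216 and 213 on the control arrays and fell by 1.05 (SE 0.13, adjusted p = 0.00174). The rise was KCNJ15 (0.62, adjusted p = 0.00891, up to 0.0656 without miR-376a*A replicate 2 or 3), a potassium channel.

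Cell cycle genes rose more often than they fell. In the list of G2 phase and mitosis 9 genes were higher and 1 lower of 69 (14.5% called, against 3.33% of all genes), in that of G1 cyclins, CDKs and CDK inhibitors 5 and 0 of 33 (15.2%), and in that of DNA replication and S phase 4 and 1 of 53 (9.43%). Without control replicate 1 the counts were 20 and 2, 10 and 2, and 11 and 1, or 31.9%, 36.4% and 22.6% against 13.3% of all genes. The list medians were 0.16, 0.13 and 0.12, with 52, 22 and 39 members above 0, against 0.01 over all genes, where 51.3% lay above 0. Without control replicate 1 the medians were 0.16, 0.10 and 0.12, against 0.02 over all genes. For miR-376a*G minus all 3 controls the medians were 0.29, 0.11 and 0.17, with 12, 4 and 6 rises and 0 falls in each list. The direct test of miR-376a*A against miR-376a*G called 2, 0 and 1 members, so the rises were not particular to miR-376a*A.

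Stable rises were found for 2 cyclins and a cyclin-dependent kinase. CCNA2, the cyclin of S and G2 phase, had 533, 538 and 518 on the miR-376a*A arrays and 171, 191 and 234 on the control arrays, and it rose by 1.34 (SE 0.10, adjusted p = 9.44e-05). CCNE1, the cyclin that drives entry into S phase with CDK2, had 319, 328 and 348 on the miR-376a*A arrays and 148, 190.0 and 174 on the control arrays and rose by 0.89 (SE 0.11, adjusted p = 0.00153). CDK6, a kinase that phosphorylates the retinoblastoma protein in G1, had 261, 258 and 257 on the miR-376a*A arrays and 84.9, 115 and 131 on the control arrays and rose by 1.15 (SE 0.13, adjusted p = 0.000945). For none of these genes did the groups overlap, which was so for every call. GMNN, or geminin, which blocks a second round of origin licensing, had 591, 563 and 593 on the miR-376a*A arrays and 209.9, 314 and 312 on the control arrays and rose by 1.02 (SE 0.12, adjusted p = 0.00127). ANAPC13, a small subunit of the anaphase-promoting complex that ends mitosis, rose by 0.54 (SE 0.06, adjusted p = 0.00133) and was the 1 call among 18 subunits and partners of that complex (5.56%), with 4 and 0 (22.2%) without control replicate 1.

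The falls in these lists were fewer and lay outside the cyclins. MELK, a kinase abundant in dividing and glioma cells, had 362, 276 and 300.1 on the miR-376a*A arrays and 574, 843 and 955 on the control arrays and fell by 1.31 (SE 0.18, adjusted p = 0.00304). POLE3, a histone-fold subunit of DNA polymerase epsilon, had 691, 712 and 731 on the miR-376a*A arrays and 1082, 1042 and 1092 on the control arrays and fell by 0.60 (SE 0.08, adjusted p = 0.00181). SKP2, the F-box protein that targets a CDK inhibitor for degradation, had 237, 107 and 89.7 on the miR-376a*A arrays and 301, 321 and 491 on the control arrays. It fell by 1.37 (SE 0.29, adjusted p = 0.0308) with all arrays, and it did not pass without control replicate 2 or 3, miR-376a*A replicate 2 or 3 or any 1 miR-376a*G array (adjusted p up to 0.153). SKP2 was the only call among 46 SCF and F-box genes with all arrays (2.17%), with 0 and 8 (17.4%) without control replicate 1.

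The other called cell cycle genes were not stable. Among mitotic genes TOP2A, the topoisomerase that untangles sister chromosomes, had 795, 905 and 965 on the miR-376a*A arrays and 129, 333 and 488 on the control arrays, with control replicate 1 well below the others. It was called with all arrays (1.58, adjusted p = 0.0334, up to 0.139 without control replicate 2, any 1 miR-376a*A array or any 1 miR-376a*G array). The proliferation antigen Ki-67 is encoded by MKI67 (0.66, adjusted p = 0.0357, up to 0.172 without control replicate 2 or 3, any 1 miR-376a*A array or miR-376a*G replicate 2 or 3). NDC80 is a kinetochore protein (0.71, adjusted p = 0.0123, up to 0.0746 without any 1 miR-376a*A array). Another call was CDCA3 (0.60, adjusted p = 0.0127, up to 0.0809 without miR-376a*A replicate 1 or 3). Further mitotic calls were PBK (0.57, adjusted p = 0.025, up to 0.113 without any 1 miR-376a*A array or miR-376a*G replicate 1 or 2), BUB1B (0.47, adjusted p = 0.0498, up to 0.212 without control replicate 2, any 1 miR-376a*A array or any 1 miR-376a*G array), KIF2C (0.38, adjusted p = 0.0395, up to 0.178 without control replicate 2, any 1 miR-376a*A array or any 1 miR-376a*G array) and PRC1 (0.34, adjusted p = 0.0487, up to 0.194 without control replicate 2, any 1 miR-376a*A array or miR-376a*G replicate 1 or 2). Among the S phase genes were DUT (0.47, adjusted p = 0.0217, up to 0.11 without control replicate 2 or 3 or any 1 miR-376a*A array) and TYMS (0.24, adjusted p = 0.0365, up to 0.177 without control replicate 2 or 3, any 1 miR-376a*A array or miR-376a*G replicate 1 or 2), which make nucleotides for replication, and GINS2 (0.42, adjusted p = 0.0493, up to 0.204 without any 1 array other than control replicate 1), of the replicative helicase. In G1, E2F2 (0.66, adjusted p = 0.00705, up to 0.0525 without miR-376a*A replicate 2) and E2F8 (0.71, adjusted p = 0.0309, up to 0.148 without control replicate 3, any 1 miR-376a*A array or any 1 miR-376a*G array) are E2F factors, and CDKN1A, which encodes a CDK inhibitor, rose as well (0.53, adjusted p = 0.0323, up to 0.172 without control replicate 3, any 1 miR-376a*A array or any 1 miR-376a*G array). CDK1 and CCNB1, the kinase and cyclin that trigger mitosis, did not pass, at 0.19, adjusted p = 0.594, and 0.11, adjusted p = 0.63, respectively. CDK1 passed without control replicate 1 (0.37, adjusted p = 0.0105). DNA repair had 2 rises and 0 falls among 51 genes (3.92%), RAD51C (0.76, adjusted p = 0.0168, up to 0.0975 without any 1 miR-376a*A array) and UNG (0.70, adjusted p = 0.0363, up to 0.157 without control replicate 3, any 1 miR-376a*A array or any 1 miR-376a*G array), with 3 and 1 (7.84%) without control replicate 1.

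**Figure D4:**
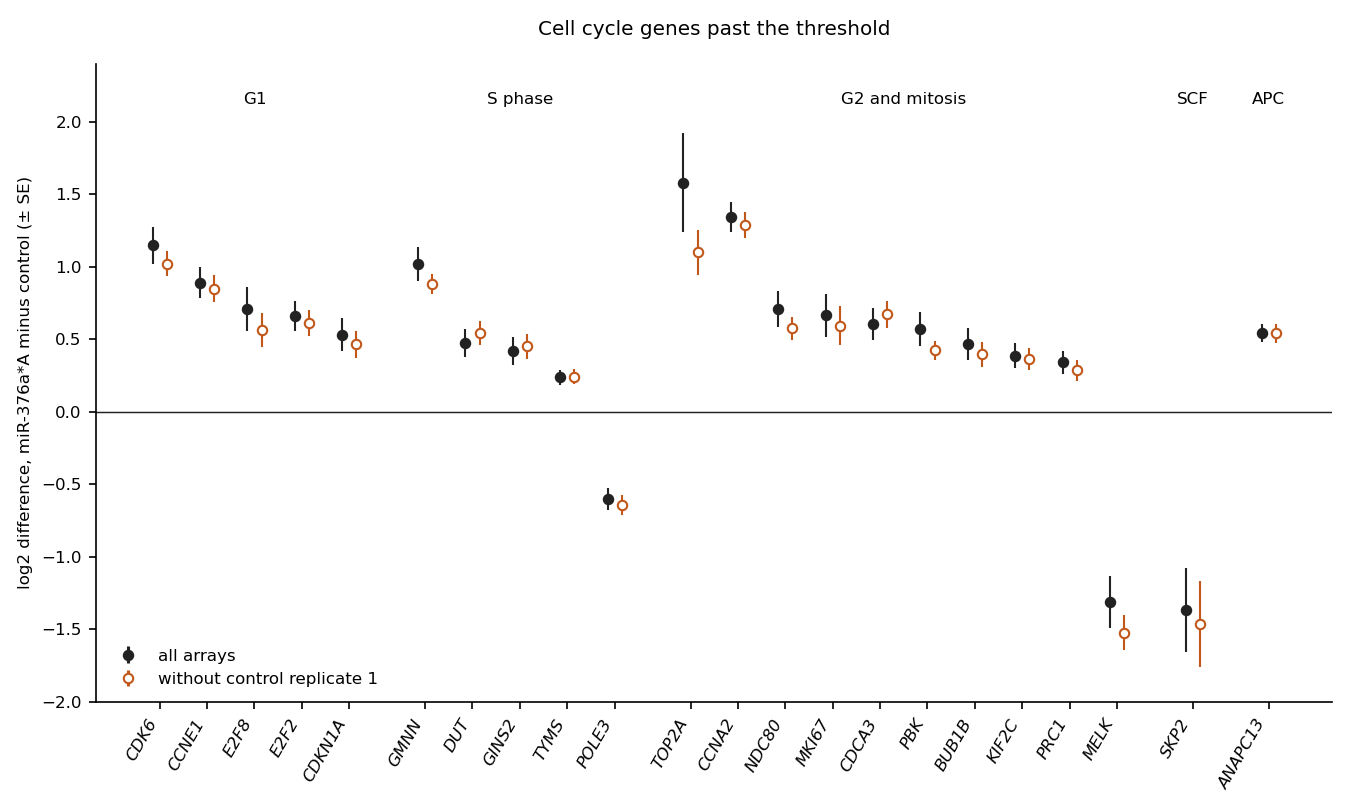
log2 difference (± SE) of miR-376a*A minus control for the 22 cell cycle genes past the threshold, with all arrays (black) and without control replicate 1 (open orange). TOP2A, CCNA2, CDK6 and GMNN exceed 1 and MELK and SKP2 lie below -1 with all arrays.

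With all arrays, the 1 call in the cholesterol list and the 3 in the fatty acid and phospholipid list were falls. The called shares were 4.17% and 6%, against 3.33% of all genes. INSIG1, an ER protein that retains the sterol sensor SCAP, had 584, 589 and 551 on the miR-376a*A arrays and 955, 1078 and 1112 on the control arrays and fell by 0.87 (SE 0.10, adjusted p = 0.00113), and its other probe sets fell at -0.63 and -0.64. ELOVL5, an elongase of polyunsaturated fatty acids, had 789.9, 743 and 780.2 on the miR-376a*A arrays and 1602, 1734 and 1810.1 on the control arrays and fell by 1.15 (SE 0.12, adjusted p = 0.000586). Its 3 other probe sets, at -0.21, -0.08 and -0.10, did not pass, nor did the mean of its probe sets (adjusted p = 0.0909). PTDSS1, which makes phosphatidylserine, fell by 0.56 (SE 0.07, adjusted p = 0.00133), with 936, 894 and 999 on the miR-376a*A arrays and 1563, 1302 and 1355 on the control arrays. The fatty acid and phospholipid list held 0 rises and 3 falls among 50 genes (6%), the third being HADHB (-0.62, adjusted p = 0.0414, up to 0.181 without any 1 array other than control replicate 1), a subunit of the mitochondrial beta-oxidation enzyme. It held 5 and 5 (20%) without control replicate 1, as many rises as falls. INSIG1 was the 1 call among 24 cholesterol genes (4.17%), with 1 and 7 (33.3%) without control replicate 1.

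Outside the lists, SOAT1, UGCG and ATP8B2 also act on membrane lipids. SOAT1, which esterifies cholesterol for storage, had 169, 179 and 169 on the miR-376a*A arrays and 387, 438 and 405 on the control arrays and fell by 1.19 (SE 0.11, adjusted p = 0.000231). UGCG, which makes glucosylceramide, the first step of most glycosphingolipids, had 289.7, 294 and 284 on the miR-376a*A arrays and 445, 719 and 729.9 on the control arrays and fell by 1.08 (SE 0.16, adjusted p = 0.00472). ATP8B2, a phospholipid flippase, rose instead, with 279, 388 and 396 on the miR-376a*A arrays and 118, 128 and 152 on the control arrays, and it rose by 1.29 (SE 0.15, adjusted p = 0.00127). These calls are stable, and the lack of overlap between the groups was required of genes named outside the lists. One probe set of SOAT1, among -0.09 and -0.94, did not pass.

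Mitochondrial genes were called in both directions, and none of the respiratory chain passed. PITRM1, a matrix protease that degrades cleaved presequences, had 188, 195 and 171 on the miR-376a*A arrays and 633, 573 and 597 on the control arrays and fell by 1.63 (SE 0.10, adjusted p = 1.47e-05), while its other probe set, at -0.20, did not pass. TIMM21, which links the import translocases, had 338, 313 and 345 on the miR-376a*A arrays and 613, 712 and 659 on the control arrays and fell by 0.97 (SE 0.09, adjusted p = 0.000231). Import, protease and dynamics genes had 0 rises and 3 falls among 46 (6.52%), the third being VDAC1 (-0.26, adjusted p = 0.00911, up to 0.0655 without miR-376a*A replicate 1 or 3), the outer membrane channel, and 1 and 4 (10.9%) without control replicate 1. TIMM10B, an import chaperone of the intermembrane space that is in no list, had 185, 127 and 133 on the miR-376a*A arrays and 64.7, 76.6 and 63.3 on the control arrays and rose by 0.98 (SE 0.16, adjusted p = 0.00771), a stable call. MDH1, the cytosolic malate dehydrogenase of the malate-aspartate shuttle, had 888, 1014 and 1029.9 on the miR-376a*A arrays and 2879, 1879.6 and 1746 on the control arrays and fell by 1.02 (SE 0.08, adjusted p = 9.42e-05). Citrate synthase rose, given as CS (0.54, adjusted p = 0.0116, up to 0.0842 without miR-376a*A replicate 2 or 3), and these were the calls among 37 citrate cycle and one-carbon genes (5.41%), with 3 and 2 (13.5%) without control replicate 1. MRPS14, a protein of the small mitochondrial ribosomal subunit, had 540.2, 529 and 545 on the miR-376a*A arrays and 137, 192 and 143 on the control arrays and rose by 1.68 (SE 0.12, adjusted p = 9.42e-05). It was the 1 call among 75 mitochondrial ribosomal proteins (1.33%), with 8 and 0 (10.7%) without control replicate 1. Respiratory chain and ATP synthase subunits had 0 calls by limma among 66, with 1 at an unadjusted p under 0.05, and 0 calls without control replicate 1.

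Elsewhere in metabolism single genes were called, 2.33% of the glycolysis and hypoxia list and 3.45% of the nucleotide synthesis list with all arrays. EPAS1, the hypoxia-inducible factor HIF-2 alpha, was the call among 43 glycolysis and hypoxia genes (0.36, adjusted p = 0.0147, up to 0.0927 without any 1 miR-376a*A array), with 4 and 1 (11.6%) without control replicate 1. CTPS1, which makes CTP, was that among 29 nucleotide synthesis genes (-0.50, adjusted p = 0.0299, up to 0.147 without control replicate 2 or 3, any 1 miR-376a*A array or miR-376a*G replicate 1 or 2), with 1 and 4 (17.2%) without control replicate 1.

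Among genes of protein synthesis BZW1 stood lowest. BZW1, a mimic of the initiation factor eIF5 that tightens start codon choice, had 387, 421 and 387 on the miR-376a*A arrays and 1419, 1293 and 1306 on the control arrays, and it fell by 1.71 (SE 0.08, adjusted p = 7.45e-06). Its second probe set fell by a like amount, at -1.51. It was the 1 call among 48 initiation and elongation genes (2.08%), with 2 and 2 (8.33%) without control replicate 1. YRDC, which takes part in making the threonylcarbamoyl modification of transfer RNA, had 240.4, 202 and 220.3 on the miR-376a*A arrays and 472, 642 and 612 on the control arrays and fell by 1.34 (SE 0.12, adjusted p = 0.000294). NSUN2, a cytosine methyltransferase of transfer RNA, had 154, 154 and 132 on the miR-376a*A arrays and 265, 325 and 365 on the control arrays and fell by 1.05 (SE 0.11, adjusted p = 0.000788). DUS3L, a dihydrouridine synthase, was dim and rose, with 59.5, 69.3 and 53.8 on the miR-376a*A arrays and 26.7, 15.9 and 24.5 on the control arrays and a difference of 1.07 (adjusted p = 0.00122). These 4 calls are stable. The transfer RNA list had 1 rise and 2 falls among 44 genes (6.82%), and 1 and 7 (18.2%) without control replicate 1. Cytosolic ribosomal proteins had 0 calls by limma among 52, with 3 at an unadjusted p under 0.05, and 0 without control replicate 1.

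In protein turnover, 1 rise and 1 fall were called among 56 ubiquitin-conjugating enzymes and deubiquitinases (3.57%), with 4 and 2 (10.7%) without control replicate 1. USP22, a deubiquitinase of the SAGA complex, had 855, 812 and 832 on the miR-376a*A arrays and 482, 547 and 535 on the control arrays and rose by 0.63 (SE 0.08, adjusted p = 0.00168), but it did not pass with averaged probe sets (adjusted p = 0.0716). CDC34, the ubiquitin-conjugating enzyme of SCF ligases, was a fall (-0.56, adjusted p = 0.0257, up to 0.131 without control replicate 2, any 1 miR-376a*A array or any 1 miR-376a*G array). No proteasome gene of 36 passed in limma, and 0 had an unadjusted p under 0.05, with 0 and 1 (2.78%) called without control replicate 1.

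In the nucleus, SNRPA1, a protein of the U2 spliceosomal particle, had 317, 244 and 214 on the miR-376a*A arrays and 503, 612 and 528 on the control arrays and fell by 1.08 (SE 0.14, adjusted p = 0.00259). Its other probe sets differed by -1.17, -1.39 and 0.03, of which the last did not pass. CBX1, the heterochromatin protein HP1 beta, had 1326, 1308 and 1381 on the miR-376a*A arrays and 815, 868 and 801 on the control arrays and rose by 0.67 (SE 0.06, adjusted p = 0.000258). Splicing had 2 rises and 1 fall among 68 genes (4.41%), and 3 and 6 (13.2%) without control replicate 1, when falls were the more frequent. Chromatin modifiers had 2 and 0 among 87 (2.3%), and 8 and 7 (17.2%) without control replicate 1. The rises besides CBX1 were SRSF1 (0.38, adjusted p = 0.00961, up to 0.0656 without any 1 miR-376a*A array), PRPF31 (0.73, adjusted p = 0.0337, up to 0.16 without any 1 array other than control replicate 1) and PCGF6 (0.68, adjusted p = 0.0195, up to 0.104 without any 1 miR-376a*A array). CDK8, the kinase of the Mediator complex, had 316, 288 and 275 on the miR-376a*A arrays and 53.7, 132 and 125 on the control arrays, and it rose by 1.49 (SE 0.25, adjusted p = 0.00891), with an adjusted p of 0.0531 without miR-376a*A replicate 1. The list of RNA polymerases, general factors and Mediator had 3 rises and 0 falls among 78 genes (3.85%), the others being POLR3E (0.59, adjusted p = 0.0213, up to 0.125 without control replicate 2 or 3, any 1 miR-376a*A array or miR-376a*G replicate 1) and GTF2E1 (0.46, adjusted p = 0.0414, up to 0.199 without any 1 array other than control replicate 1), and 7 and 5 (15.4%) without control replicate 1. Genes of the microRNA machinery and RNA editing had 1 rise and 1 fall among 41 (4.88%), the Argonaute partner TNRC6C (0.57, adjusted p = 0.0183, up to 0.108 without miR-376a*A replicate 1 or 2) and the decapping enzyme DCP2 (-0.88, adjusted p = 0.0299, up to 0.14 without control replicate 2 or 3, any 1 miR-376a*A array or miR-376a*G replicate 1 or 2), and 2 and 4 (14.6%) without control replicate 1.

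VCL, MYH9, CAP2 and KATNAL1 were stable falls among adhesion and cytoskeletal genes. VCL, or vinculin, which couples integrins to actin, had 835, 849 and 822 on the miR-376a*A arrays and 1385, 1265 and 1386 on the control arrays and fell by 0.68 (SE 0.09, adjusted p = 0.00319). MYH9, the heavy chain of non-muscle myosin IIA, had 553, 553 and 574 on the miR-376a*A arrays and 1208, 928 and 942 on the control arrays and fell by 0.85 (SE 0.09, adjusted p = 0.000913). CAP2, which recycles actin monomers, fell by 0.59 (SE 0.09, adjusted p = 0.00729), with 371, 366 and 362 on the miR-376a*A arrays and 549, 571 and 529 on the control arrays. The actin list had 0 rises and 2 falls among 65 genes (3.08%), and 4 and 5 (13.8%) without control replicate 1, shares near those of all genes. Integrin and focal adhesion genes had 2 rises and 1 fall of 40 (7.5%), and 6 and 2 (20%) without control replicate 1. The rises were PTK2 (0.51, adjusted p = 0.039, up to 0.178 without any 1 array other than control replicate 1), the focal adhesion kinase, and PARVA (0.75, adjusted p = 0.0359, up to 0.153 without any 1 miR-376a*A array or any 1 miR-376a*G array), which binds integrin-linked kinase. KATNAL1, a katanin ATPase that severs microtubules, had 77.7, 114 and 116 on the miR-376a*A arrays and 238, 295 and 333 on the control arrays and fell by 1.38 (SE 0.16, adjusted p = 0.0012), though its other probe set, at 0.08, did not pass. The list of tubulins and motors held 1 rise and 2 falls among 67 genes (4.48%), the second fall being KIF16B (-1.01, adjusted p = 0.0157, up to 0.0894 without control replicate 2 or any 1 miR-376a*A array), and 4 and 8 (17.9%) without control replicate 1. CDH2, or N-cadherin, had 980.3, 949 and 1011 on the miR-376a*A arrays and 216, 489 and 460.4 on the control arrays. It rose by 1.34 (SE 0.22, adjusted p = 0.00909), with an adjusted p of up to 0.0504 without miR-376a*A replicate 1 or 3, and its other probe set rose at 0.91. It was the 1 call among 25 cadherins, catenins and mesenchymal regulators (4%), with 2 and 1 (12%) without control replicate 1.

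Matrix genes were called in both directions, 2 higher and 4 lower of 62 (9.68%), with 6 and 6 (19.4%) without control replicate 1. SDC4, a heparan sulphate proteoglycan of focal adhesions, had 952, 948 and 859 on the miR-376a*A arrays and 1821, 1327 and 1462 on the control arrays and fell by 0.70 (SE 0.08, adjusted p = 0.00149), the stable call of this list. The hyaluronan synthases moved in opposite directions, HAS2 (0.72, adjusted p = 0.0109, up to 0.0739 without miR-376a*A replicate 1 or 2) and HAS3 (-0.61, adjusted p = 0.0475, up to 0.179 without control replicate 3, any 1 miR-376a*A array or any 1 miR-376a*G array). UGDH, which makes the UDP-glucuronate that hyaluronan and heparan sulphate require, was a fall (-1.17, adjusted p = 0.0167, up to 0.0896 without control replicate 2 or any 1 miR-376a*A array). The heparan sulphate enzyme EXTL3 (-0.98, adjusted p = 0.0147, up to 0.0827 without any 1 miR-376a*A array) and the chondroitin sulphate enzyme CSGALNACT1 (0.76, adjusted p = 0.0259, up to 0.116 without control replicate 2, any 1 miR-376a*A array or any 1 miR-376a*G array) were the other calls. Of 32 proteases and inhibitors 3 rose and 0 fell (9.38%), with 5 and 2 (21.9%) without control replicate 1. ADAMTS1, a secreted metalloprotease that cleaves proteoglycans, had 618, 527 and 522 on the miR-376a*A arrays and 189.7, 259 and 273 on the control arrays and rose by 1.14 (SE 0.12, adjusted p = 0.000817), a stable call. The others were PLAUR (0.41, adjusted p = 0.0298, up to 0.154 without control replicate 3, any 1 miR-376a*A array or miR-376a*G replicate 1 or 2), the urokinase receptor, and ADAM19 (0.68, adjusted p = 0.0115, up to 0.0689 without any 1 miR-376a*A array). ADAM19 was also higher than with miR-376a*G, by 1.14 (adjusted p = 0.000795). Collagens and their modifying enzymes had 0 calls by limma among 43, with 3 at an unadjusted p under 0.05, and 2 and 0 (4.65%) without control replicate 1. Axon guidance genes had 0 calls by limma among 32, with 4 at an unadjusted p under 0.05, and 1 and 0 (3.12%) without control replicate 1.

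Genes of stress responses were called in both directions, with 0 to 3 calls a list. XBP1, a transcription factor of the unfolded protein response, had 517, 527 and 538 on the miR-376a*A arrays and 305, 343 and 355 on the control arrays and rose by 0.61 (SE 0.09, adjusted p = 0.00364), the 1 call among 38 genes of that response (2.63%), with 5 and 3 (21.1%) without control replicate 1. GSR, the reductase that regenerates glutathione, had 293, 313 and 294 on the miR-376a*A arrays and 119.6, 126 and 137 on the control arrays and rose by 1.13 (SE 0.11, adjusted p = 0.000321). SLC38A1, a glutamine transporter, had 526, 544 and 574 on the miR-376a*A arrays and 1339, 929 and 1006 on the control arrays and fell by 0.95 (SE 0.09, adjusted p = 0.000434). These 3 calls are stable. NRF2 antioxidant genes had 1 rise and 2 falls among 27 (11.1%), the falls being SLC7A11 (-0.73, adjusted p = 0.0147, up to 0.083 without control replicate 2 or any 1 miR-376a*A array), the cystine transporter, and HMOX1 (-0.55, adjusted p = 0.0305, up to 0.143 without control replicate 3, any 1 miR-376a*A array or miR-376a*G replicate 3), the haem oxygenase, and 1 and 6 (25.9%) without control replicate 1. SLC38A1 and SLC7A11 were the calls among 32 genes of amino acid response and transport (6.25%), with 4 and 3 (21.9%) without control replicate 1. The p53 list had 2 rises of 23 (8.7%), CDKN1A and FAS (0.56, adjusted p = 0.0354, up to 0.167 without control replicate 3, any 1 miR-376a*A array or any 1 miR-376a*G array), a death receptor, and 4 and 3 (30.4%) without control replicate 1. In the apoptosis list of 33 genes (6.06% called), BCL2, which blocks apoptosis, rose besides FAS (0.62, adjusted p = 0.0352, up to 0.156 without control replicate 2 or 3, any 1 miR-376a*A array or miR-376a*G replicate 1 or 2). The counts of the apoptosis list were 5 and 1 (18.2%) without control replicate 1. CXCL8, a neutrophil chemokine, was the call among 33 NF-kappaB genes (0.70, adjusted p = 0.0235, up to 0.122 without any 1 miR-376a*A array or miR-376a*G replicate 1 or 2), and BAG5 (-0.60, adjusted p = 0.0336, up to 0.152 without any 1 array other than control replicate 1) that among 34 heat shock and chaperone genes. The called shares of these 2 lists were 3.03% and 2.94% with all arrays. Without control replicate 1 the lists had 7 and 1 (24.2%) and 0 and 5 (14.7%), respectively.

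The list of interferon response genes and RNA sensors, which are known to respond to foreign RNA, had 0 calls by limma among 38 genes, with 4 at an unadjusted p under 0.05. Its median difference was 0.10, and 0.22 without control replicate 1, when 3 genes rose and 0 fell (7.89%). All groups had received a duplex.

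Of the genes in none of the lists, RSPRY1 fell furthest. RSPRY1, which encodes a protein with RING and SPRY domains, had 134, 149 and 135 on the miR-376a*A arrays and 422, 369 and 431 on the control arrays, and it fell by 1.46 (SE 0.11, adjusted p = 9.42e-05). Both other probe sets fell, at -1.46 and -1.36. BRI3BP had 41.3, 48.1 and 47.9 on the miR-376a*A arrays and 98, 169 and 195 on the control arrays and fell by 1.39 (SE 0.18, adjusted p = 0.00256). ARL6, a small GTPase that recruits the BBSome coat to cilia, had 61.8, 68.7 and 65 on the miR-376a*A arrays and 154, 184 and 170.1 on the control arrays and fell by 1.18 (SE 0.10, adjusted p = 0.000206). KCTD12, an auxiliary subunit of GABA-B receptors, had 148, 142 and 127 on the miR-376a*A arrays and 226, 347 and 402 on the control arrays and fell by 1.13 (SE 0.16, adjusted p = 0.00402). All of these are stable calls.

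Outside the lists, further sugar transferases were called in both directions. POMGNT1, which extends O-mannose on dystroglycan, had 131, 134 and 129 on the miR-376a*A arrays and 228, 299 and 308 on the control arrays and fell by 1.00 (SE 0.11, adjusted p = 0.000795). TMTC3, an O-mannosyltransferase of cadherins, had 266, 234 and 229 on the miR-376a*A arrays and 407, 577 and 722 on the control arrays and fell by 1.17 (SE 0.17, adjusted p = 0.00472). B3GAT3, which completes the linker on which heparan and chondroitin sulphate are built, had 91.3, 106 and 104 on the miR-376a*A arrays and 277, 212 and 195 on the control arrays and fell by 1.06 (SE 0.16, adjusted p = 0.00607). GALNT1, which starts mucin-type O-glycans, had 947, 990.2 and 1042 on the miR-376a*A arrays and 484, 338 and 353 on the control arrays and rose by 1.31 (SE 0.14, adjusted p = 0.000795), and its other 3 probe sets rose, at 1.80, 1.57 and 2.30. Of nuclear proteins, SCML1, a Polycomb-related protein, fell by 1.22 (SE 0.10, adjusted p = 0.000168), and EXOSC6, a core subunit of the RNA exosome, fell by 1.01 (SE 0.10, adjusted p = 0.000389). The other probe sets of EXOSC6 (-0.32 and -0.45) did not pass. ARMCX5 fell by 1.24 (SE 0.11, adjusted p = 0.000231), and it did not pass with averaged probe sets (adjusted p = 0.0584). The call on COMMD2, whose controls were 89.8, 233 and 205, was not stable (-1.33, adjusted p = 0.0207, up to 0.0991 without control replicate 2 or 3 or any 1 miR-376a*A array).

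Rises outside the lists included enzymes, a phosphatase and a clock gene. GLO1, the glyoxalase that detoxifies methylglyoxal, had 1868, 1921 and 2078 on the miR-376a*A arrays and 682, 709 and 766 on the control arrays and rose by 1.42 (SE 0.07, adjusted p = 7.45e-06). NEURL1B, a ubiquitin ligase that acts on Notch ligands, had 158, 153 and 154 on the miR-376a*A arrays and 33.2, 46.8 and 39.3 on the control arrays and rose by 1.68 (SE 0.13, adjusted p = 9.42e-05). SERPINB9, an inhibitor of granzyme B, had 260.4, 217 and 204 on the miR-376a*A arrays and 55.4, 72.7 and 85.9 on the control arrays and rose by 1.52 (SE 0.15, adjusted p = 0.000473). PPP1CC, a catalytic subunit of protein phosphatase 1, had 1324, 1309.7 and 1268 on the miR-376a*A arrays and 323, 538 and 538 on the control arrays and rose by 1.44 (SE 0.15, adjusted p = 0.000669). NR1D2, or REV-ERB beta, a repressor in the circadian clock, had 142, 149.5 and 129 on the miR-376a*A arrays and 29, 54.9 and 54.5 on the control arrays and rose by 1.42 (SE 0.19, adjusted p = 0.00304). The calls are stable, and the lack of overlap between the groups was required of genes named outside the lists.

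SRPRA, the receptor subunit that docks ribosomes with signal peptides at the ER, had 625, 621 and 702 on the miR-376a*A arrays and 272, 270.1 and 295 on the control arrays and rose by 1.14 (SE 0.09, adjusted p = 0.000139). MINPP1, an inositol polyphosphate phosphatase, rose by 1.33 (SE 0.10, adjusted p = 9.44e-05), and FAM3C, a secreted protein, rose by 1.27 (SE 0.15, adjusted p = 0.00161). NDN, or necdin, a growth suppressor of neurons, rose by 1.26 (SE 0.16, adjusted p = 0.00181). SSB, the La protein that binds the 3′ ends of RNA polymerase III transcripts, had 578, 579 and 616 on the miR-376a*A arrays and 259, 276 and 247 on the control arrays and rose by 1.11 (SE 0.10, adjusted p = 0.000347). These are stable calls. The larger rise of PHTF2 was not stable (1.56, adjusted p = 0.00911, up to 0.0559 without miR-376a*A replicate 1).

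The direct test of miR-376a*A against miR-376a*G, which uses the same miR-376a*A arrays as the comparison with control, called 329 genes (2.63%), 174 higher with miR-376a*A (1.39%) and 155 lower (1.24%). The median difference from miR-376a*G was -0.74 over the 77 stable falls and -0.02 over the 76 stable rises. Over the same genes the median of miR-376a*G minus control was -0.07 and 1.00, where the controls are shared with the choice of the genes. RRAS2 was lower than with miR-376a*G, at a difference of -2.30 (adjusted p = 8.61e-06), as were TOR1B at -2.20 (adjusted p = 8.05e-06) and BZW1 at -1.62 (adjusted p = 8.05e-06), and miR-376a*G minus control was 0.07, 0.15 and -0.09 for these genes. VMA21, TVP23B, PITRM1, SEC23B and MELK were lower than with miR-376a*G too, at -1.65, -1.72, -1.54, -1.37 and -1.32, with adjusted p of 4.51e-05, 0.00161, 3.79e-05, 0.000976 and 0.00301.

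Some falls did not pass against miR-376a*G. VCL was -1.06 with miR-376a*G minus control and INSIG1 -0.68, and miR-376a*A minus miR-376a*G was 0.37 (SE 0.09, adjusted p = 0.0803) and -0.19 (SE 0.10, adjusted p = 0.58). SLC39A14 was intermediate, at -0.70 with miR-376a*G minus control and -0.74 with miR-376a*A minus miR-376a*G (adjusted p = 0.00154). Among the rises, SEC22C was 1.78 for miR-376a*A and 1.81 for miR-376a*G relative to the same controls, a difference between the duplexes of -0.02 (SE 0.10, adjusted p = 0.99). CCNA2 was 1.34 and 1.51, a difference of -0.17 (SE 0.10, adjusted p = 0.711). GLO1, CAV2, NUP37 and ATL3 differed between the duplexes by -0.02, -0.01, -0.18 and -0.01, with SE of 0.07, 0.08, 0.10 and 0.19, and none passed. IL11, NEURL1B and SRPRA were higher in the direct test, by 0.78, 0.70 and 0.64 (adjusted p = 0.0151, 0.0169 and 0.00475).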

How the data were processed

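Total RNA from 9 SW1783 cultures was measured on Affymetrix arrays after biotin-ULS labelling (per the labels' protocols). Here 6 of the arrays were compared. The authors deposited linear intensities for 54675 probe sets, and the software listed per the submitters' processing notes is GCOS 1.4.0.036. How probes were summarised is not given in the sources used here. Trimmed means of the deposited intensities were 100.01 to 100.013 on every array, so a change common to most transcripts would not be seen. From these, log2(signal + 16) was computed and quantile normalized. The 41097 probe sets with 1 symbol were named from the platform annotation, and 1801 with several and 11777 with none were left out. Probe sets below the median of all (5.17, log2) were dropped and the brightest of each gene was kept. All 9 arrays were fitted together in R 4.3.3 with limma 3.58.1 (lmFit, eBayes with intensity trend), with Benjamini-Hochberg adjustment of p-values over 12505 genes, with a threshold of 0.05. The other probe sets of a gene were judged in the same model fitted to all 27338 probe sets past the filter. Their p-values were adjusted over those probe sets, with the same threshold. An exact test of 3 against 3 arrays cannot go below p = 0.1. The model was tested on simulated data with each array's own spread, in which 200 of 12505 genes were changed. It called 193 genes, of which 34 (17.6%) were false against a threshold of 5%, so that some of the changes were missed. Genes were named from among called members of the functional lists, the 40 largest rises and 40 largest falls without overlap outside them, RAP2A and marker genes; not all are described. 1 list is not reported here. The members and lists were chosen with earlier results of these data known. A few uncalled genes (RAP1B, CDK1, CCNB1) were named after their values were seen.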

Additional observations from a re-analysis of the deposited data

How the results depend on the processing

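With control replicate 1 left out, 1669 genes were called, 866 higher and 803 lower, and with array weights, which gave that array 0.0712 against 0.544 to 2.81 for the others, 2315 were called, 1281 higher and 1034 lower. All 417 calls were kept under both. Leaving out any other single array gave 176 to 404 calls, 87 to 249 higher and 82 to 155 lower. Over all 9 such fits the ranges were 176 to 1669, 87 to 866 and 82 to 803. Fitting only the 6 arrays compared, with fewer samples behind the spread, gave 156 calls, 78 higher and 78 lower. Centring arrays on their medians gave 108 falls and 227 rises, a share of 67.8% rises against 58.5%. A fit with replicate block called 292 genes, 163 higher and 129 lower, 285 of them among the 417. Whether the replicate numbers pair the samples is not known. The same-numbered arrays of both groups deviated from their group means with correlations of -0.335, 0.0315 and -0.361, and differently numbered arrays with -0.267 to 0.371. Deviations from a mean of 3 arrays depend on one another, so these values cannot decide it. Other offsets, no normalization, other filters, averaged probe sets and no intensity trend gave 338 to 459 calls. Of the 222 calls that the naming rule covers none changed direction under any of the 20 alternatives. Fitting only the 6 arrays lost 108 of them, the block 50, median centring 38, averaged probe sets 36, no filter 36, no normalization 29 and no intensity trend 14, and losses under the other settings that kept all 9 arrays numbered 0 to 4. Leaving out 1 array lost 0 to 98. The report names such losses, other than those on leaving out 1 array, for some genes only. Of the 65 list medians, 35 moved with median centring, 16 without control replicate 1 and 12 with array weights. Under the other settings 0 to 13 moved. A move means at least 1 pooled standard deviation of the list median over the miR-376a*A and control arrays. With median centring the median difference over all genes was 0.06. The number of arrays limits the precision, and leaving out 1 miR-376a*A array kept 176 to 181 of the 417 calls.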
